A study of Mus musculus with 8 samples.

Results

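The endoplasmic reticulum chaperone and unfolded protein response genes described here are Xbp1, Hspa5, Hsp90b1, Hyou1, Dnajb9, Sdf2l1, Pdia4, Manf, Creld2 and Herpud1. They were chosen by name, as the rows of the deposited count table whose gene symbol is one of these, and all 10 of 10 were found among 22183 genes. All 10 passed the filter on low counts, which left 11692 genes. Whole-liver RNA gave 8 sequencing libraries. The 4 knockout libraries came from Stat3flox/flox;Alb-Cre mice, where Cre recombinase is made from the albumin promoter, mainly in hepatocytes, and the 4 control libraries came from Stat3flox/flox mice, which carry the same floxed alleles without Cre. Mice of both genotypes were gavaged with 20% alcohol at 15 µL per g each day for 2 weeks, so genotype was compared under alcohol alone and no group without alcohol was analysed here. Age and sex were not given in the sources used here. Alb-Cre leaves Stat3 intact in most of the non-parenchymal cells of the liver, and whole-tissue RNA holds RNA of hepatocytes and of these cells.

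The endoplasmic reticulum folds the proteins that a cell secretes, and hepatocytes, which make most plasma proteins, rely on it heavily. When unfolded protein builds up, the sensors IRE1 (gene Ern1), PERK (Eif2ak3) and ATF6 start the unfolded protein response. IRE1 splices Xbp1 mRNA into the form that encodes an active transcription factor, ATF6 is cut to release another, and PERK slows translation and favours ATF4 and CHOP (Ddit3). XBP1 and ATF6 raise the genes of chaperones, of folding enzymes, of vesicle transport and of the degradation of misfolded protein. STAT3, the factor deleted here, is a main driver of the acute-phase secretory programme of hepatocytes. Gene-level counts do not separate spliced from unspliced Xbp1 mRNA.

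The promoters of these genes are known for the endoplasmic reticulum stress element (ERSE), which ATF6 binds together with NF-Y, and for the related ERSE-II. RefSeq promoter windows of 300 bases (GRCm38.p6, from 250 bases before the transcript start to 50 after it) were at hand for 8 of the 10 genes, all but Hyou1 and Manf. An ERSE, searched on both strands as CCAAT, any 9 bases and CCACG, was found in 3 of these 8 windows and in 0.119% of 32851 windows of the whole table. An ERSE-II, searched on both strands as ATTGG, any 1 base and CCACG, was found in 1 of 8 and in 0.0365% of all windows. The UPRE, searched on both strands as TGACG followed directly by TGG, was in 0 of 8 and 0.676%, and the STAT motif, searched as TTC, any 3 bases and GAA, which reads the same on both strands, in 0 of 8 and 8.3%. A match is a match of letters and not a measured binding site. The promoters that held a match are shown, since they include Hspa5, whose knockout and control values did not overlap, and Hsp90b1, the gene of the 10 with a negative fold change. Each runs 5′ to 3′ on the gene's strand up to the base before the RefSeq start, and capitals mark the ERSE or ERSE-II.
Hspa5 (chr2:34771940-34772089, + strand, 1 ERSE): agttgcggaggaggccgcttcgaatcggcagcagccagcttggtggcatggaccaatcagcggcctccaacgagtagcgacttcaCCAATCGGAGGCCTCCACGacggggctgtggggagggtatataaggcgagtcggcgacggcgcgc
Hsp90b1 (chr10:86705445-86705666, − strand, 2 ERSE in opposite orientation): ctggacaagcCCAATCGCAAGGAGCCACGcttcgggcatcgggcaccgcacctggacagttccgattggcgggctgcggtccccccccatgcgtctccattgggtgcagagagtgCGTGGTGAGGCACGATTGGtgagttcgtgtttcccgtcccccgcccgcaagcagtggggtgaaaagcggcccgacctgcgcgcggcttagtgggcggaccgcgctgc
Creld2 (chr15:88819496-88819645, + strand, 1 ERSE in reverse orientation): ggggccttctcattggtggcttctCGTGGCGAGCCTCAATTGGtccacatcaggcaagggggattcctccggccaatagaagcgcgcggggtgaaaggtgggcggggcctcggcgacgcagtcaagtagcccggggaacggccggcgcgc
Herpud1 (chr8:94386279-94386428, + strand, 1 ERSE-II): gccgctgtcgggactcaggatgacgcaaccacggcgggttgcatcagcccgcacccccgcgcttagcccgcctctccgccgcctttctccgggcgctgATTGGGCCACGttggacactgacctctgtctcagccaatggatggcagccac

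The libraries held 15998391 to 19367580 counts in knockout and 16533823 to 19474696 in control. Stat3, the check of the labels, was at 25.1 to 29.7 CPM (counts relative to the library total, scaled by TMM, which adjusts for differences in RNA composition) in knockout and 46.8 to 75.1 CPM in control, and fell (log2 fold change −1.27, SE 0.17, Benjamini-Hochberg adjusted p = 0.0469 over all genes tested, edgeR's quasi-likelihood test). It missed 0.05 under 9 of 22 alternatives (adjusted p 7.38e-08 to 0.227 over all of them). Both genotypes mixed libraries with and without Y-linked reads: counts summed over Uty, Kdm5d, Eif2s3y and Ddx3y were 728 to 934 in knockouts 2, 3 and 4 and 294 and 1672 in controls 4 and 3, against 2 in knockout 1 and 5 and 1 in controls 1 and 2. Libraries with more than 10 of these counts are called libraries with Y-linked reads. Albumin took 27.3% of the counts of control 2, against 7.46 to 13.8% in the knockouts and 8.53 to 12.9% in the other controls. Mitochondrial transcripts took 20.9 ± 1.19% of counts in knockout and 16.2 ± 3.26% in control (SD, n = 4 each), and the part of this difference in the results was not tested. Summed markers of hepatocytes, the labelled tissue's main cell, stood at 107613 to 160130 CPM in knockout and 117931 to 344856 CPM in control, the highest being control 2. The labels do not say that the samples are separate animals, so p-values measure the spread between these samples, which may be technical in part.

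None of the 10 genes passed the adjusted threshold, and the values of most were on the higher side in knockout livers. Manf, Creld2 and Hyou1 had the largest values, with fold changes of 1.93, 1.83 and 1.76, followed by Herpud1 (1.52), Dnajb9 (1.33), Hspa5 (1.32) and Sdf2l1 (1.2), while Pdia4 (1.07) and Xbp1 (1.01) had values near 1 and Hsp90b1 (0.884) was on the lower side. The median log2 fold change of the 10 was 0.41, against −0.03 over all 11692 genes. Of the 10, 9 were positive, against 5472 of the 11692. At an adjusted p under 0.05 in edgeR's test, 0 of 10 rose and 0 of 10 fell, where 0% of all genes rose and 0.0342% fell. At an unadjusted p under 0.05, 6 of 10 were higher (5.55% of all genes) and 0 of 10 lower (8.47% of all genes). The 10 genes were chosen with earlier results of these data known, so the contrast with all genes is a description. In DESeq2 1 of 10, Manf, was called higher at an adjusted p under 0.05, against 0.907% of all genes, and limma-voom called 0. The knockout and control values did not overlap for 2 of 10, Hspa5 and Manf, both higher in knockout, against 3.22% of all genes with knockout above control, and 0 of 10 were lower without overlap, against 3.86%. With library totals in place of TMM scaling, 3 of 10 were higher at an unadjusted p under 0.05, where the share of all genes was also smaller (3.22%), and 0 of 10 were higher without overlap (2.28% of all genes). The count at an unadjusted p under 0.05 was also 3 without knockout 3 (3.81% of all genes) and without knockout 4 (3.29% of all genes), and these were Hyou1, Manf and Creld2 in all 3 settings.

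**Figure D1:**
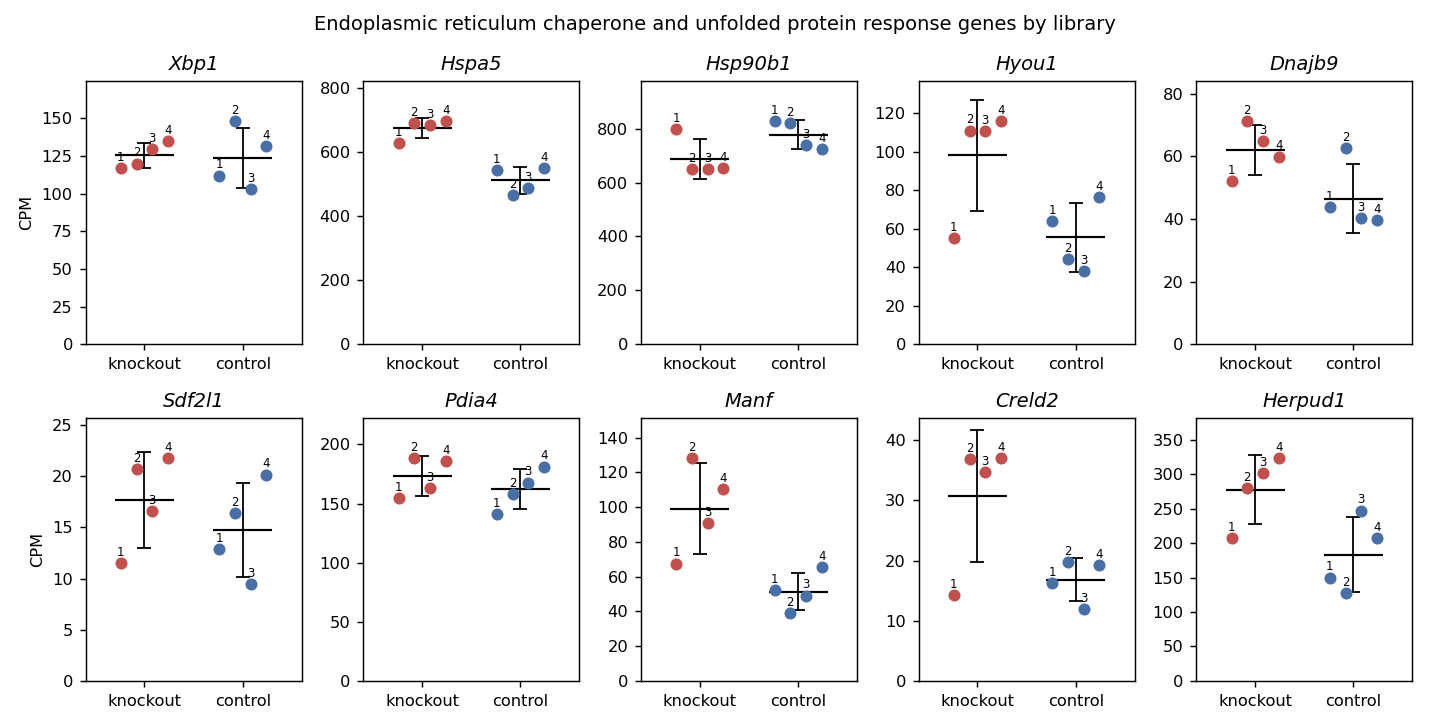
CPM of the 10 genes in each library, with the 4 knockout libraries left and the 4 control libraries right in each panel. Points are libraries, labelled by replicate number; the line is the mean and the bar ± SD. Knockout 1 is the lowest knockout library for 9 of the 10 genes, and Hsp90b1 is the exception.

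Xbp1 (ENSMUSG00000020484, chromosome 11, 5520659 to 5525893, GRCm38), the transcription factor spliced by IRE1, gave overlapping groups. It was at 117, 120, 129 and 135 CPM in knockouts 1 to 4, against 112, 148, 103 and 131 CPM in controls 1 to 4. Control 2 was above every knockout and control 3 below every knockout, so the control values enclosed those of the knockouts. The log2 fold change was 0.02 (SE 0.16, adjusted p = 0.967), and its sign turned under library totals (−0.02).

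Hspa5 (ENSMUSG00000026864, chromosome 2, 34771970 to 34777547), which encodes BiP, the Hsp70 chaperone that binds unfolded protein and holds the sensors inactive, was higher in every knockout library than in any control library. It was at 627, 689, 683 and 696 CPM in knockouts 1 to 4, against 544, 465, 487 and 549 CPM in controls 1 to 4. The knockouts were close together apart from the lower knockout 1, and the nearest pair was knockout 1 and control 4. The groups overlapped when library totals replaced TMM scaling. Under TMM scaling the log2 fold change of Hspa5 was 0.40 (SE 0.15, adjusted p = 0.295). Hsp90b1 (ENSMUSG00000020048, chromosome 10, 86690209 to 86705509), which encodes GRP94, the Hsp90 chaperone of the endoplasmic reticulum, did not follow BiP. It was at 797, 649, 651 and 653 CPM in knockouts 1 to 4, against 828, 821, 740 and 723 CPM in controls 1 to 4. Knockouts 2 to 4 lay below every control, while knockout 1 lay among the controls. This gave a log2 fold change of −0.18 (SE 0.16, adjusted p = 0.636). These genes, both with an ERSE in the sequences above, thus had values of opposite sign. In GENCODE M21, exons of the opposite-strand pseudogene 1810014B01Rik cover 10.3% of the exon bases of Hsp90b1, and whether counting used strand is not given in the sources used here.

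Hyou1 (ENSMUSG00000032115, chromosome 9, 44379490 to 44392369) encodes GRP170, a large chaperone that serves as a nucleotide exchange factor of BiP. It was at 54.9, 111, 111 and 116 CPM in knockouts 1 to 4, against 64.0, 44.0, 37.8 and 76.2 CPM in controls 1 to 4. All controls were below knockouts 2 to 4, which were close together, and knockout 1 lay below controls 1 and 4. The log2 fold change was 0.82 (SE 0.28, adjusted p = 0.264). Dnajb9 (ENSMUSG00000014905, chromosome 12, 44205559 to 44210326) encodes ERdj4, a J-domain cochaperone of BiP that takes part in repressing IRE1. It was at 52.1, 71.3, 65.0 and 60.0 CPM in knockouts 1 to 4, against 43.8, 62.7, 40.3 and 39.5 CPM in controls 1 to 4. The groups overlapped through control 2, which stood above knockouts 1 and 4. This gave a log2 fold change of 0.42 (SE 0.18, adjusted p = 0.345).

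Sdf2l1 (ENSMUSG00000022769, chromosome 16, 17130138 to 17132383), a partner of the J-domain cochaperones in the lumen, was at 11.5, 20.7, 16.6 and 21.8 CPM in knockouts 1 to 4, against 12.9, 16.4, 9.48 and 20.2 CPM in controls 1 to 4. The groups were interleaved, with knockout 1 below 3 of the controls, and the log2 fold change was 0.26 (SE 0.26, adjusted p = 0.672). Pdia4 (ENSMUSG00000025823, chromosome 6, 47796141 to 47813430), the disulfide isomerase ERp72, was at 154, 189, 163 and 186 CPM in knockouts 1 to 4, against 141, 158, 168 and 181 CPM in controls 1 to 4. Its groups overlapped over most of their range, and the log2 fold change was 0.09 (SE 0.15, adjusted p = 0.812).

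Manf (ENSMUSG00000032575, chromosome 9, 106838312 to 106891979) encodes a small stress-induced protein that binds BiP and can be secreted. It was at 67.5, 128, 90.6 and 110 CPM in knockouts 1 to 4, against 52.1, 39.1, 49.2 and 65.5 CPM in controls 1 to 4. Every knockout lay above every control, by a narrow margin between knockout 1 and control 4, though not with library totals in place of TMM scaling. The log2 fold change was 0.95 (SE 0.22, adjusted p = 0.142), the largest of the 10, and by p it ranked 122 among all genes tested. DESeq2 called it (log2 fold change 0.96, adjusted p = 0.0048), the adjusted p over all alternatives run being 0.0048 to 0.445. In GENCODE M21, opposite-strand exons of the antisense gene 4930524O07Rik cover 4.71% of its exon bases and those of Dcaf1 4.14%.

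Creld2 (ENSMUSG00000023272, chromosome 15, 88819646 to 88826683), a stress-induced secreted protein with EGF-like repeats, was at 14.3, 36.9, 34.7 and 37.1 CPM in knockouts 1 to 4, against 16.3, 19.7, 11.9 and 19.2 CPM in controls 1 to 4. The highest control was well below knockouts 2 to 4, and knockout 1 was below 3 of the 4 controls. This gave a log2 fold change of 0.87 (SE 0.29, adjusted p = 0.247). Herpud1 (ENSMUSG00000031770, chromosome 8, 94386438 to 94395377) encodes HERP, a membrane protein of the degradation complex for misfolded protein. It was at 207, 279, 301 and 324 CPM in knockouts 1 to 4, against 150, 127, 247 and 208 CPM in controls 1 to 4. Knockouts 2 to 4 lay above every control and knockout 1 below controls 3 and 4. Its log2 fold change was 0.60 (SE 0.23, adjusted p = 0.302).

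Knockout 1 was the lowest knockout library for 9 of the 10 genes. Leaving out the lowest library by itself raises the fold changes of those 9, so the values without it are a description. Without knockout 1 the log2 fold change of Creld2 was 1.11 (SE 0.18, adjusted p = 0.0352), that of Manf 1.09 (adjusted p = 0.0539) and that of Hyou1 1.02 (adjusted p = 0.0895). Xbp1 (0.05) and Pdia4 (0.15) stayed near 0 and Hsp90b1 was at −0.26. Then 1 of 10, Creld2, rose at an adjusted p under 0.05 in edgeR's test, against 0.346% of all genes. With knockout 2, 3 or 4 left out instead, 0 of 10 and 0 of all genes rose at that threshold. Without knockout 1 the groups did not overlap, knockout higher, for 5 of 10 (Hspa5, Hyou1, Manf, Creld2 and Herpud1), against 9.74% of all genes. The adjusted p of Creld2 over all alternatives run was 0.0352 to 0.574. Knockout 1 also had a higher albumin share than knockouts 2 to 4 (13.8%, against 7.46 to 8.49%). Its summed hepatocyte markers, albumin among them, were at 160130 CPM, against 107613 to 113137 CPM. Its stellate cell markers were at 372 CPM, against 219 to 225 CPM. Knockout 1 was the only knockout library without Y-linked reads as well. In this genotype the library, its sex-linked profile and these other traits cannot be told apart.

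Values within each class of Y-linked reads are therefore set beside the pooled ones. Among the 5 libraries with Y-linked reads (3 knockout, 2 control), the log2 fold changes were 1.21 for Creld2 (SE 0.20, adjusted p = 0.0414), 0.98 for Hyou1 (adjusted p = 0.145), 0.94 for Manf (adjusted p = 0.0703), 0.71 for Dnajb9 (SE 0.12, adjusted p = 0.0467), 0.41 for Hspa5, 0.41 for Herpud1 and 0.41 for Sdf2l1. Those of Xbp1, Pdia4 and Hsp90b1 were 0.13, 0.04 and −0.17. Of the 10, Creld2 and Dnajb9 rose at an adjusted p under 0.05 there, against 0.621% of all genes, and the adjusted p of Dnajb9 over all alternatives was 0.0467 to 0.657. Among the 3 libraries without Y-linked reads, knockout 1 set against the mean of controls 1 and 2 gave log2 ratios of 0.58 for Herpud1, 0.57 for Manf and 0.31 for Hspa5. There Pdia4 was at 0.05, Hyou1 at 0.02, Dnajb9 at −0.03, Hsp90b1 at −0.05, Xbp1 at −0.15, Creld2 at −0.33 and Sdf2l1 at −0.34, with no replicate check. Manf, Herpud1 and Hspa5 thus had log2 values above 0.3 in both classes. Creld2, Hyou1, Dnajb9 and Sdf2l1 had such values in the class with Y-linked reads and were near or below 0 in the other. The cut of 0.3 was set with the values known, and the class without Y-linked reads holds 1 knockout library. For Sdf2l1 the value in the class with Y-linked reads had an SE of 0.30 (adjusted p = 0.548, edgeR's test). Whether the effect differed between the classes was not tested. When a term for Y-linked reads was added to the fit of all 8 libraries, 0 of 10 rose at an adjusted p under 0.05, against 0.103% of all genes, and the fold changes were 0.81 for Manf, 0.70 for Creld2 and 0.65 for Hyou1 on the log2 scale.

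**Figure D2:**
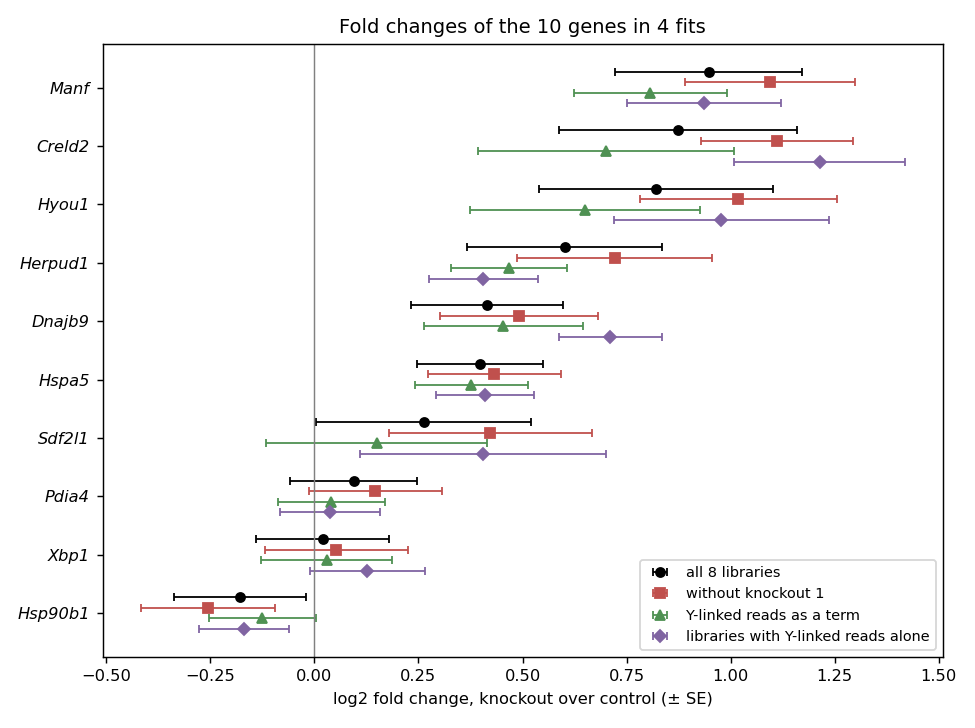
Log2 fold change of knockout over control for the 10 genes (points) with its standard error (bars) in 4 fits: all 8 libraries, 7 libraries without knockout 1, all 8 with a term for Y-linked reads, and the 5 libraries with Y-linked reads. Hsp90b1 lies below 0 and Hspa5, Dnajb9, Herpud1, Hyou1, Creld2 and Manf above 0 in all 4, and Creld2 ranges from 0.70 to 1.21.

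Because the scaling of libraries bears on small differences, each gene was also set against Hsp90b1 within its own library, as counts per 100 counts of Hsp90b1, a ratio that no scaling factor enters. Hsp90b1 was chosen with its values known and was itself on the lower side in knockout, which raises every ratio there, so the ratios are given as a description. Hspa5 stood at 78.6, 106, 105 and 107 in knockouts 1 to 4, against 65.7, 56.7, 65.9 and 76.0 in controls 1 to 4. Knockouts 2 to 4 were close together, knockout 1 was lower, and every knockout was above every control. Creld2 stood at 1.79, 5.68, 5.34 and 5.67 in knockouts 1 to 4, against 1.96, 2.40, 1.61 and 2.66 in controls 1 to 4. The mean ratio was higher in knockout for 9 of 9 genes, by 2.21 times for Manf, 2.14 times for Creld2, 2.04 times for Hyou1 and 1.16 times for Xbp1. Hspa5 was the 1 gene of 9 without overlap, and for Manf knockout 1 (8.47) was below control 4 (9.05). The ratio to Hsp90b1 was not taken for all genes, so these counts have no share to be read against.

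**Figure D3:**
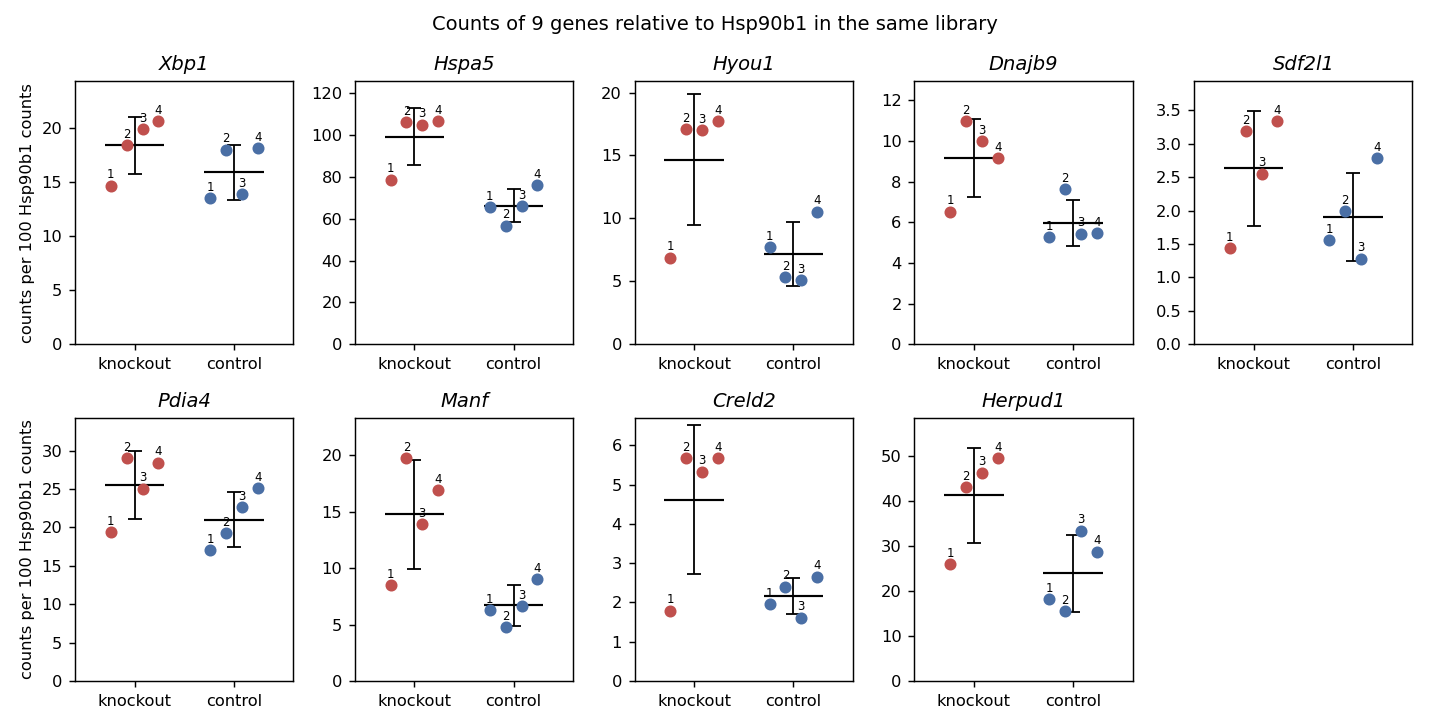
Counts of 9 genes per 100 counts of Hsp90b1 in the same library, with knockout libraries left and control libraries right. Points are libraries labelled by replicate number, lines are means and bars ± SD. Hspa5 reaches 78.6 to 107 in the 4 knockouts and 56.7 to 76.0 in the 4 controls.

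Levels of different genes were compared per exon length, as TPM, counts per exon length scaled to 1 total in every library, from the estimated counts and exon lengths of GENCODE M21. Hsp90b1 was at 300 ± 53.4 TPM in knockout and 389 ± 90.7 TPM in control, and Hspa5 at 278 ± 16.5 TPM in knockout and 246 ± 66.2 TPM in control (mean ± SD, n = 4 each). Their ranges overlapped in the knockouts. For Hspa5, control 1 (320 TPM) stood above every knockout (254 to 291 TPM). Herpud1 (207 ± 35.8 TPM in knockout, 155 ± 41.1 in control), Pdia4 (126 ± 7.52 TPM in knockout, 135 ± 24.9 in control) and Xbp1 (67.5 ± 6.96 TPM in knockout, 76.3 ± 17.4 in control) followed, each without overlap with its neighbours in the knockouts. Manf (48.6 ± 9.48 TPM in knockout, 29.8 ± 10.3 in control), Dnajb9 (42.3 ± 2.77 in knockout, 36.4 ± 8.66 in control) and Creld2 (38.7 ± 12.8 in knockout, 13.9 to 30.6 in control) came next. Sdf2l1 (27.6 ± 6.22 TPM in knockout, 27.1 ± 10.6 in control) and Hyou1 (23.4 ± 6.29 in knockout, 8.35 to 22.9 in control) came last. In the knockouts each of these 5, down to Hyou1, overlapped with its neighbour. Together the 10 genes held 2103 to 2339 CPM in the knockouts and 1894 to 2014 CPM in the controls. As a share of raw counts they took 0.212 to 0.232% in the knockouts and 0.162 to 0.234% in the controls, so the groups were apart on the scaled sum and overlapped on the unscaled share.

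The genes did not all vary together. Over the 8 libraries, Creld2 followed the mean of the other 9 genes most closely by Pearson r (r 0.94, Spearman rho 0.88). Hyou1 (r 0.93, rho 0.90), Manf (r 0.89, rho 0.79) and Hspa5 (r 0.85, rho 0.90) were behind it by r. By rho, Hyou1 and Hspa5 stood above Creld2. Xbp1 followed the mean of the others loosely (r 0.35, rho 0.33), and Hsp90b1 ran against that mean (r −0.88, rho −0.79). These values describe 8 libraries that share scaling and the genotype difference itself, and carry no p. The mean level of the 10 genes, each as log2 CPM centred on its mean over the libraries, was −0.15, 0.37, 0.26 and 0.37 in knockouts 1 to 4, against −0.24, −0.21, −0.37 and −0.02 in controls 1 to 4. Knockout 1 thus lay below control 4 and above the other controls.

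The rest of the pathway was read from lists of sensors and factors, folding enzymes, degradation, translocon, vesicle transport and PERK targets, which hold 124 further genes, 122 of them tested. Of these 122, 0 rose and 0 fell at an adjusted p under 0.05 in edgeR's test, 17 were higher and 5 lower at an unadjusted p under 0.05, and the median log2 fold change was 0.06, against −0.03 over all genes. Over all genes 5.55% were higher and 8.47% lower at that p, and the counts of each list are to be read against these shares. With the 10 genes included, DESeq2 called 4 genes of the lists higher (Manf, Sec23b, Spcs2 and Trib3) and 2 lower (Pdia6 and Derl3), against 0.907% higher and 1.39% lower over all genes, and limma-voom called 0. Kdelr3 and Stc2 were too low to be tested (0 to 8 and 0 to 5 counts per library). Of 13 sensors and factors, Xbp1 among them, 2 were higher at an unadjusted p under 0.05, Ddit3 (CHOP) and the NF-Y subunit Nfyb, and 0 lower, with a list median of 0.02. Ddit3 was at 1.95, 6.69, 4.21 and 5.72 CPM in knockouts 1 to 4, against 1.64, 2.77, 0.715 and 3.70 CPM in controls 1 to 4 (log2 fold change 1.07, SE 0.48, adjusted p = 0.355). Knockouts 2 to 4 again stood above every control and knockout 1 among them. Ern1, the IRE1 gene, was at 35.6 ± 2.77 CPM in knockout and 46.4 ± 19.1 CPM in control (log2 fold change −0.38, adjusted p = 0.508).

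Of 34 chaperones and folding enzymes, 8 of them among the 10 genes, 6 were higher and 2 lower at an unadjusted p under 0.05. The median log2 fold change was 0.10. Of the 6 higher genes, all but Txndc5 were among the 10 genes, while the 2 lower ones, Pdia6 and Dnajc1, were not. The disulfide isomerase gene Pdia6 was lower in every knockout (191, 221, 214 and 225 CPM in knockouts 1 to 4) than in any control (280, 349, 268 and 300 CPM in controls 1 to 4). Its log2 fold change of −0.49 (SE 0.15, adjusted p = 0.230) was on the other side from that of Txndc5, another member of the isomerase family (0.53, SE 0.17, adjusted p = 0.247). Of 24 degradation genes, Herpud1 among them, 7 were higher and 2 lower at an unadjusted p under 0.05, with a median of 0.10. Syvn1, the ubiquitin ligase HRD1, had the pattern of Creld2, at 20.5, 57.4, 50.9 and 57.5 CPM in knockouts 1 to 4, against 29.0, 17.7, 25.4 and 34.8 CPM in controls 1 to 4 (log2 fold change 0.80, SE 0.31, adjusted p = 0.302). Derl3, a derlin of the same machinery, was low and on the opposite side, at 0.459 ± 0.407 CPM in knockout and 2.32 ± 1.17 CPM in control (log2 fold change −2.35, SE 0.65, adjusted p = 0.196), with 1 to 15 counts per knockout library and 23 to 56 per control library.

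Of 30 translocon and signal peptidase genes, 3 were higher and 0 lower at an unadjusted p under 0.05 (median 0.09), among them the signal peptidase subunit Spcs2 (log2 fold change 0.44, SE 0.14, adjusted p = 0.245). Of 21 tested genes of transport to the Golgi, 4 were higher and 0 lower (median 0.15). Sec23b, a subunit of the COPII coat, had the smallest adjusted p of all the lists. It was at 34.5, 53.8, 47.1 and 45.7 CPM in knockouts 1 to 4, against 23.9, 20.6, 27.6 and 26.8 CPM in controls 1 to 4, with every knockout above every control. Its log2 fold change was 0.87 (SE 0.17, adjusted p = 0.079). It passed 0.05 in DESeq2, without knockout 1, without control 3 and among libraries with Y-linked reads, the adjusted p over all alternatives being 0.00065 to 0.292. Of 11 tested targets of PERK and ATF4, 2 were higher (Ddit3 and Trib3, a pseudokinase gene, at 0.75) and 1 lower (Chac1, which degrades glutathione, at −0.72), and the median was −0.23. The values of this branch thus lay on both sides of 0, with 4 positive and 7 negative.

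**Figure D4:**
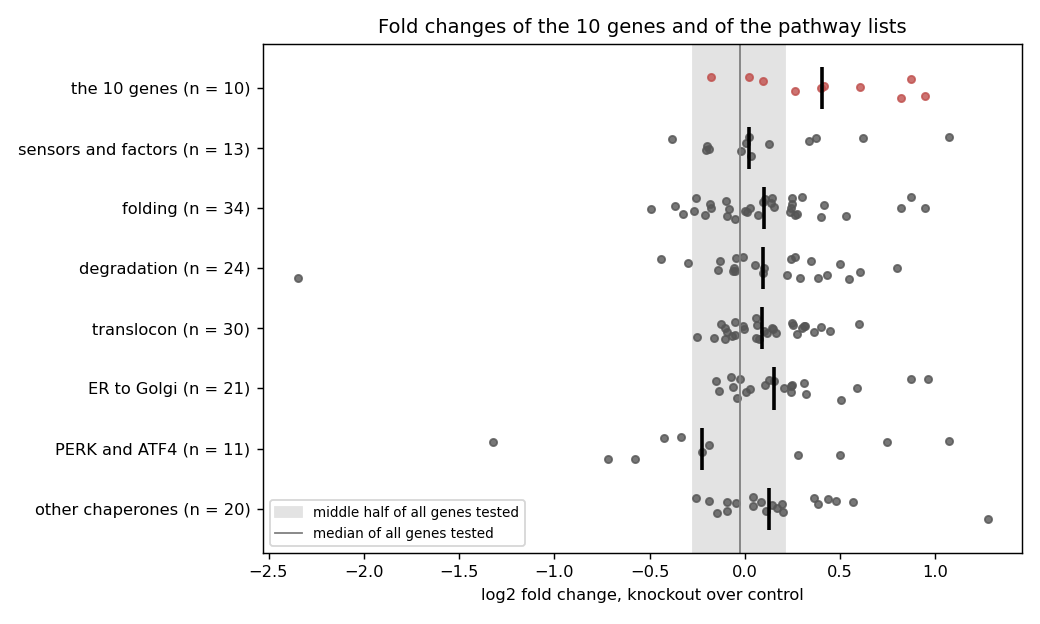
Log2 fold change of knockout over control for each tested gene (points) of the 10 genes and of the pathway lists, which share members with them, with list medians as black bars. The grey band runs from −0.27 to 0.21, the lower to the upper quartile of all 11692 genes, and the grey line at −0.03 is their median; the median of the 10 genes is 0.41.

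**Figure D5:**
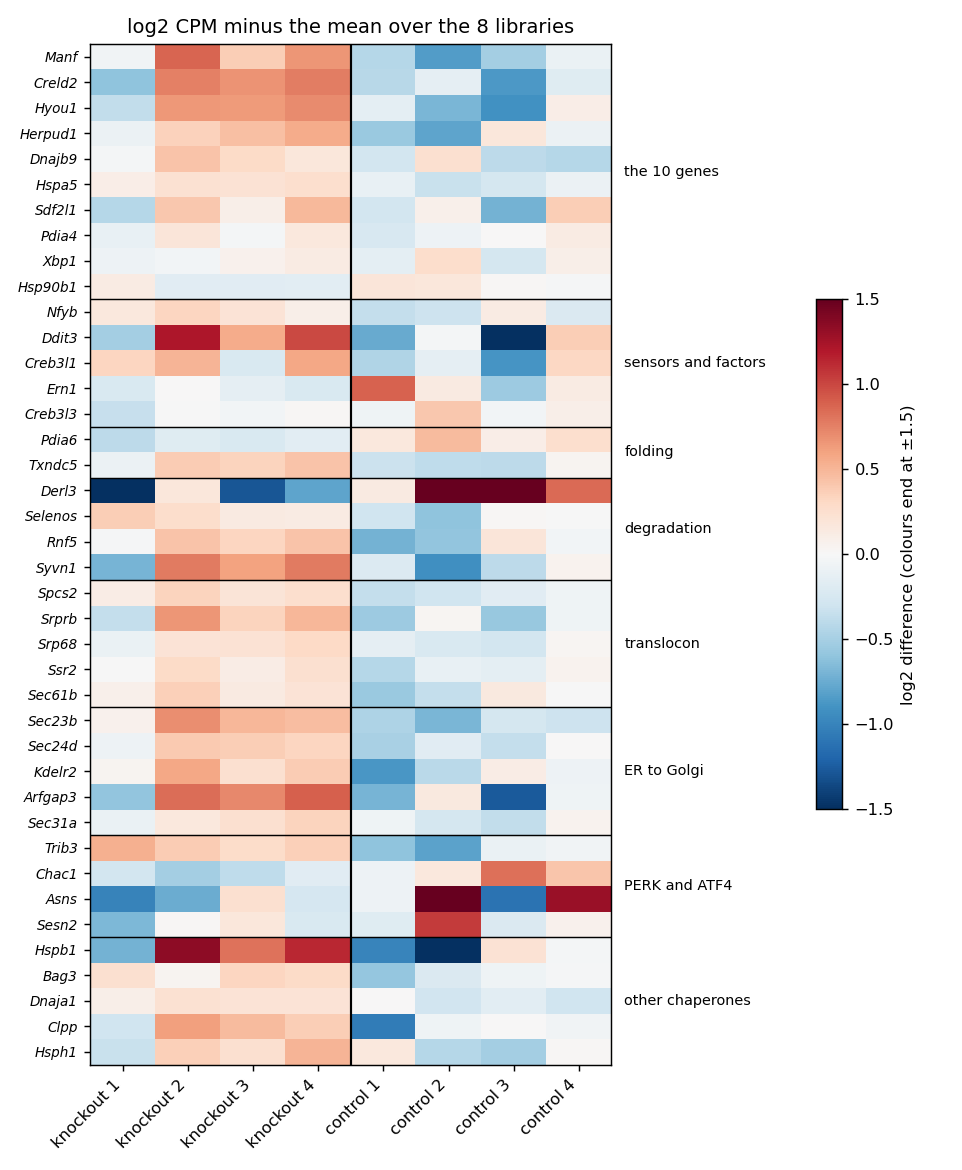
Log2 CPM minus the mean over the 8 libraries for the 10 genes and the list genes with the smallest p (rows, grouped by list), with knockouts left of the line and controls right. Colours end at 1.5 on either side. Knockouts 2 to 4 are mostly red for Manf, Creld2, Hyou1, Syvn1 and Arfgap3, and knockout 1 is blue for Creld2, Hyou1 and Syvn1.

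In whole tissue, fewer cells of a type and less RNA per cell cannot be told apart, and secretory cells other than hepatocytes also express these genes. B cell and plasma cell markers (9 genes, 7 tested, 4 higher at an unadjusted p under 0.05 and 0 past the adjusted threshold) summed to 204, 290, 222 and 743 CPM in knockouts 1 to 4, against 152, 145, 103 and 162 CPM in controls 1 to 4. None of the 9 was at 0 in all libraries. Over all genes tested, 5.55% were higher and 8.47% lower at an unadjusted p under 0.05, the shares to set beside each marker count. Exocrine pancreas markers (5 genes) summed to 6.34 to 16.8 CPM in the knockouts and 3.40 to 7.99 CPM in the controls, with Prss1 and Pnlip at 0 in every library. Only 1 of these 5 passed the filter on low counts, higher at an unadjusted p under 0.05 and not past the adjusted threshold. Kupffer cell markers (9 genes, 8 lower at an unadjusted p under 0.05 and 0 past the adjusted threshold, median log2 fold change −1.79) summed to 60.5 to 98.9 CPM in the knockouts and 33.2 to 505 CPM in the controls, lowest in control 3, and stellate cell markers (6 genes, 4 higher at an unadjusted p under 0.05) to 219 to 372 CPM in the knockouts and 164 to 262 CPM in the controls. Sums of sinusoidal endothelium (69.7 to 78.2 CPM in knockout, 32.9 to 92.6 in control), cholangiocyte (3.85 to 5.41 in knockout, 1.84 to 6.91 in control), T and NK cell (2.23 to 4.28 in knockout, 0.775 to 10.1 in control) and neutrophil markers (0.270 to 4.81 in knockout, 1.01 to 2.41 in control) overlapped. The part of these cells in the values of the 10 genes was not tested.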

How the data were processed

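Per the labels' protocols, liver RNA of 4 knockout and 4 control samples was extracted with Trizol and sequenced on an Illumina HiSeq instrument. The submitters' processing notes list CASAVA 1.8, TopHat2, Bowtie and GRCm38; how genes were counted, and with what annotation and strand setting, is not given there. The authors' deposited values are estimated counts, unnormalized, and 94.2% were whole numbers. They were rounded, filtered by filterByExpr, scaled by TMM and tested over 11692 genes by edgeR's quasi-likelihood test (edgeR 4.0.16, R 4.3.3) with Benjamini-Hochberg adjustment; standard errors were derived from the F statistic. CPM use TMM-scaled library sizes, and per-library log2 values a prior count of 2. Alternatives included DESeq2 1.42.0 and limma-voom (limma 3.58.1). The procedure was tested on simulated data. Coordinates came from GENCODE M21 (99.8% of identifiers matched) and promoters from RefSeq. No pair of libraries agreed within sampling noise (lowest median chi-square per gene 1.29, against 0.455 for noise). Depth was 15998391 to 19474696 counts, and Creld2, for example, had 200 to 712 counts per library.

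The 10 genes, the lists and the tests were chosen with earlier results of these data known. The naming rule took Stat3, the 10 genes, the 10 genes most correlated with their mean level and, of each list, up to 5 genes by p; the text gives a part of these, chosen with their values in view, and 1 of the correlated genes is not reported here.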

Additional observations from a re-analysis of the deposited data

Results flagged for a closer look

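In 86 groups of 4 libraries examined (2 per gene or summary reported), the gap between the highest or lowest library and its nearest neighbour, as a share of the group's range, passed the 95% critical value of Dixon's test in 7. Chance alone gives about 1 in 20 groups. Of these 7, 3 concerned the 10 genes and all 3 concerned knockout 1. For Hsp90b1 the share was 0.973, with knockout 1 at 797 CPM and the other knockouts at 649 to 653 CPM. For Hyou1 it was 0.914, with knockout 1 at 54.9 CPM and the others at 111 to 116 CPM. For Creld2 it was 0.897, with knockout 1 at 14.3 CPM and the others at 34.7 to 37.1 CPM. Control 3 stood apart for Stat3 (0.893), at 46.8 CPM against 72.1 to 75.1 CPM in the other controls. Control 4 stood apart for Txndc5 (0.855), at 111 CPM against 82.4 to 86.6 CPM. Control 2 stood apart for Sesn2 (0.849), at 10.9 CPM against 4.47 to 5.44 CPM. Control 1 stood apart for the mitochondrial protease subunit gene Clpp (0.897), at 12.9 CPM against 25.5 CPM or more in the others. The causes were not tested.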

How the results depend on the processing

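Over 22 alternatives the 10 genes gave 220 values, of which 212 kept direction and side of the threshold, 4 passed it and 4 turned sign, all 4 Xbp1: −0.022 with library totals alone, and −0.056 to 0.12 with a library left out. Ern1 (0.054) and Sesn2 (0.063) turned sign among libraries with Y-linked reads. Of the 10 genes, 1 was higher at the adjusted threshold in DESeq2, 2 among libraries with Y-linked reads, and 0 to 1 with a library left out. At an unadjusted p the 6 (5.55% of all genes) became 3 with library totals (3.22%), 3 without controls 2 and 3 (8.03%), and 3 to 6 with a library left out (3.2 to 9.3%). The 2 without overlap (3.22% of all genes) became 0 with library totals (2.28%), 6 among libraries with Y-linked reads (16.8%) and 2 to 5 with a library left out (3.96 to 9.74%). Of all genes, 0 higher and 4 lower became 1 higher with RLE scaling, 4 and 7 with upper-quartile scaling, 1 lower with library totals, 26 and 36 without a filter, 1 and 7 at a CPM filter of 1, 106 and 163 in DESeq2, 0 lower in limma-voom, 2 higher with robust estimation, 12 and 15 with a term for Y-linked reads, 25 and 162 without controls 2 and 3, 74 and 51 among libraries with Y-linked reads, and 33 and 46 at a threshold of 0.10. With a library left out these were 0 to 58 higher and 0 to 266 lower, most without control 3. The pathway lists gave 4 higher and 2 lower in DESeq2, 4 higher among libraries with Y-linked reads, 1 at 0.10, and 0 to 2 with a library left out. The causes were not tested.

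The replicate block left 0 of the 10 genes called and 0 genes lower, against 4. Same-numbered samples had correlated deviations of 0.32, −0.25, 0.09 and 0.18 for numbers 1 to 4. Knockouts 1, 3 and 4 correlated best with the control of their own number, and knockout 2 with control 3 (0.38). These few weak correlations cannot decide whether the numbers pair the samples. Counts per library limit genes such as Derl3 (1 to 56).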

Other observations

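Chaperones outside the endoplasmic reticulum were read for comparison. Of 20 cytosolic and mitochondrial chaperone genes, 0 passed an adjusted p of 0.05 in edgeR's test, 3 were higher and 0 lower at an unadjusted p under 0.05 (5.55% and 8.47% of all genes), and the median log2 fold change was 0.13. Hspb1, which encodes the small heat shock protein HSP27, was at 8.66, 36.4, 25.2 and 31.4 CPM in knockouts 1 to 4, against 7.14, 4.11, 16.6 and 14.0 CPM in controls 1 to 4 (log2 fold change 1.28, SE 0.47, adjusted p = 0.285). Bag3, a cochaperone of Hsp70 (0.44), and the J-domain gene Dnaja1 (0.36) were higher in every knockout than in any control, without passing the threshold.

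Among the genes whose levels followed the mean of the 10 genes most closely over the 8 libraries were Gmppb, Txndc5, Srp68, Cks1b, Ifrd2, Rbm42, Gata4, Ddx56 and Smarcd2, with Pearson r of 0.96 to 0.99 and Spearman rho of 0.86 to 1.0. Txndc5 and Srp68 belong to the pathway lists. Gmppb, which encodes a subunit of the enzyme that makes GDP-mannose, ordered the 8 libraries exactly as the mean did, at 6.08, 11.5, 10.4 and 14.2 CPM in knockouts 1 to 4, against 4.91, 4.96, 4.29 and 6.44 CPM in controls 1 to 4. These are among the highest of 11682 correlations over 8 libraries and are given as a description.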
